A study of Mus musculus with 4 samples.

Results

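The genes described here mark the cells of the hippocampal blood vessels. They are 38 genes of 33793 probe sets measured: 29 of endothelial cells, which line the vessels, 8 of mural cells, which wrap them, and Pltp, which was placed with neither. Each gene is represented by its probe set with the highest mean value, and 38 of the 38 had only 1 probe set with their symbol. Among the 8 mural genes, 5 were placed with pericytes of the capillaries and 3 with smooth muscle of arteries and arterioles, a split that is not strict. The right hippocampi of 4 male mice, taken at postnatal day 90, were each read on an array of their own (Affymetrix Mouse Gene 2.0 ST). The 2 arrays labelled IPMK cKO, the cKO-labelled arrays below, came from Ipmk f/f mice carrying CaMKII-Cre, and the 2 labelled IPMK WT, the WT-labelled arrays, from Ipmk f/f littermates. All 4 mice thus carried the floxed Ipmk alleles and were behaviorally naive. CaMKII-Cre acts in excitatory neurons of the postnatal forebrain, so the deletion is not directed at vascular cells, and the whole tissue was measured.

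The endothelium of the brain forms the blood-brain barrier. Tight junctions seal its cells to one another, while efflux pumps and carriers decide which molecules cross. Pericytes share the basement membrane of the capillaries and help to maintain the barrier, and smooth muscle cells of arteries set vessel width by contracting. Vascular cells are a small share of hippocampal tissue, so that their transcripts are read here against those of neurons and glia. In whole tissue, fewer cells of a type and less RNA per cell cannot be told apart.

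Ipmk itself, the gene targeted in excitatory neurons, had log2 values of 7.68 and 7.71 in the WT-labelled arrays and 8.44 and 8.78 in the cKO-labelled by the brighter of its 2 probe sets. The other read 5.78 and 5.52 against 6.97 and 6.43. Ipmk thus read higher, not lower, in the cKO-labelled arrays, with log2 differences of 0.92 and 1.05 (standard errors 0.15 and 0.21). Neither had an adjusted p under 0.05 in limma, the test used below. Every direction below is that of the labels. Where its probes lie relative to the floxed part of the gene was not examined, and cells without Cre add to the value in both groups. The cause of the higher reading was not tested. Markers of neurons, the main cells of this tissue, had a median log2 level of 9.73, and 7 of 12 markers of blood leukocytes averaged under 4. Array medians lay between 5.10 and 5.15. The smallest p that an exact permutation test allows in this design is 0.333, so precision is limited by having 2 arrays a group. Both comparisons were tested with limma over all probe sets, with Benjamini-Hochberg adjustment. The labels number the mice of each genotype 1 and 2 without saying what a number stands for, and a second comparison set both replicate 2 arrays against both replicate 1 arrays.

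No vascular gene passed the test of genotype. In limma 0 of the 38 genes had an adjusted p under 0.05, as did 0% of all probe sets, and 0 of the 38 had an unadjusted p under 0.05, which 2.86% of all probe sets had. A difference of 1.5-fold or more was measured in 0 of the 38 and in 0.63% of all probe sets. The local-pooled-error (LPE) test that the study used, coded anew, also called 0 of the 38 after adjustment and 0 before it, against 0.00592% and 1.12% of all probe sets. The median log2 difference was −0.09 over the endothelial genes and −0.03 over the mural genes, against −0.00 over all probe sets. The smallest and largest differences among the 38 genes were −0.30 for Anpep and 0.42 for Tagln. The 95% confidence interval of the difference held no change of 1.5-fold for 28 of the 38, while that of Acta2 ran from −1.35 to 1.28.

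**Figure D1:**
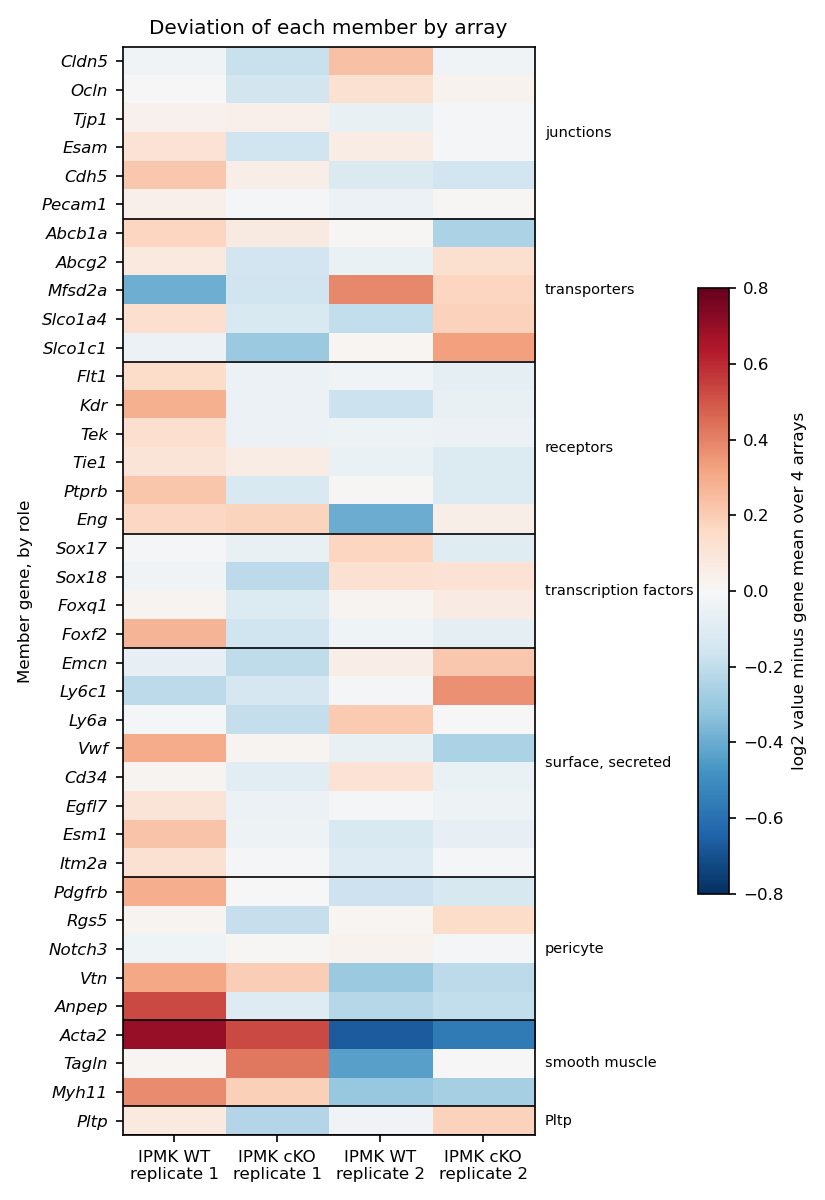
Log2 value of each of the 38 genes (rows, grouped by role) on each of the 4 arrays (columns) minus the mean of that gene over the 4 arrays, in log2 units. Acta2 has the deepest colours, above its mean in both replicate 1 arrays and below it in both replicate 2 arrays, whichever genotype the label gives.

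Among junction genes, Cldn5, the main claudin of brain endothelial tight junctions, read 6.71 and 6.96 in the WT-labelled arrays and 6.55 and 6.70 in the cKO-labelled. The groups did not overlap, but the highest cKO value lay just under the lowest WT value. Its log2 difference was −0.21 (95% confidence interval −0.57 to 0.15). Tjp1, a scaffold beneath tight junctions that many other cell types also make, read 8.84 and 8.75 against 8.85 and 8.80, a log2 difference of 0.03. Its arrays overlapped within a narrow range. Of the remaining junction genes, Esam (−0.17), Ocln (−0.12), Cdh5 (−0.10) and Pecam1 (0.00) each had an interval that spanned 0.

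Carriers of the barrier showed no shared direction by genotype. Abcb1a, the P-glycoprotein pump that returns drugs to the blood, read 7.83 and 7.67 in the WT-labelled arrays and 7.73 and 7.41 in the cKO-labelled, a log2 difference of −0.18 (95% confidence interval −0.57 to 0.21). Slco1c1, a thyroid hormone carrier that astrocytes also express, read 9.04 and 9.10 against 8.79 and 9.41. The cKO-labelled arrays thus lay on both sides of the WT arrays, with a log2 difference of 0.03. The pump Abcg2 had a log2 difference of −0.02, the anion carrier Slco1a4 of 0.06 and the lipid carrier Mfsd2a of 0.01.

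Receptors of vessel growth and stability mostly had a lower mean in the cKO-labelled arrays, 5 of 6 by mean, against 51.6% of all probe sets, and none had an unadjusted p under 0.05. Ptprb, the phosphatase that restrains the receptor Tek, read 7.39 and 7.17 against 7.04 and 7.05, without overlap, a log2 difference of −0.24 (95% confidence interval −0.56 to 0.09). Eng, a coreceptor for ligands of the TGF-beta family, was the receptor with a higher mean, at 7.52 and 6.95 against 7.53 and 7.40. The lone low value there was replicate 2 of the WT-labelled arrays. The VEGF receptors Flt1 and Kdr had log2 differences of −0.12 and −0.11, and the angiopoietin receptor Tek and its partner Tie1 of −0.09 and −0.05.

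The endothelial transcription factors Sox17, Sox18 and Foxq1 had log2 differences of −0.15, −0.09 and −0.04. Sox17, which supports arterial identity, read 5.89 and 6.07 against 5.84 and 5.80, close together but without overlap. Foxf2, which is known from pericytes as well as from endothelium, read 5.58 and 5.27 in the WT-labelled arrays and 5.14 and 5.23 in the cKO-labelled, a log2 difference of −0.24 (95% confidence interval −0.61 to 0.13). Sox18 read 5.66 and 5.81 against 5.48 and 5.81, with arrays of both genotypes at the top.

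Surface and secreted proteins of the endothelium had a lower mean in the cKO-labelled arrays in 6 of 8, against 51.6% of all probe sets. Vwf, the clotting factor stored by endothelial cells, read 6.29 and 5.93 against 6.01 and 5.74, and its groups overlapped. Its log2 difference was −0.24 (95% confidence interval −0.67 to 0.20). Ly6a, a surface antigen of mouse brain endothelium, read 9.0 and 9.22 against 8.82 and 9.01, a log2 difference of −0.20. Ly6c1 read 3.41 and 3.60 against 3.49 and 3.99, and was the member with a mean under 4, near the floor of the arrays, on a probe set of 8 probes. Emcn (0.01), Cd34 (−0.14), Egfl7 (−0.09), Esm1 (−0.11) and Itm2a (−0.02) make up the rest.

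In 9 of the 29 endothelial genes the cKO-labelled arrays lay below both WT-labelled arrays, and in 0 above both. Over all probe sets these shares were 14.8% and 12.4%, and over the 12286 bright ones, here those averaging 6 or more on the log2 scale, they were 8.44% and 13.1%. The 9 genes were Cldn5, Esam, Flt1, Tek, Ptprb, Sox17, Foxf2, Cd34 and Egfl7. Their gap was narrowest in Cldn5, at 6.706 against 6.701, and Tek, at 6.755 against 6.749, naming the lowest WT-labelled value first. It was widest in Ptprb, at 7.17 against 7.05. Replicate 1 of the WT-labelled arrays held the highest value in 14 of the 29 endothelial genes, against 25% of all probe sets, and replicate 1 of the cKO-labelled the lowest in 13, against 25.3%. Without the former array the median log2 difference of the endothelial genes was −0.03, and within replicate 1 and replicate 2 alone it was −0.15 and −0.02. Markers of the choroid plexus, the secretory epithelium of the ventricles, lay lower by mean among cKO-labelled arrays in 12 of 12, with list means of 8.01 to 8.37 in the WT-labelled arrays and 7.49 to 8.26 in the cKO-labelled, and read lowest in replicate 1 of the latter in 12 of 12. Within replicate 2 the cKO-labelled array was the higher one in 12 of 12, with a median log2 difference of 0.17, against −0.91 within replicate 1. Red cell transcripts had a higher mean in the cKO-labelled arrays in 5 of 7, with list means of 5.57 to 5.73 against 5.69 to 5.98. The part of either in the endothelial values was not tested.

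Mural genes had a lower mean in the cKO-labelled arrays in 6 of 8, against 51.6% of all probe sets. The genotypes overlapped in all 8, where 14.8% of all probe sets were lower and 12.4% higher without overlap. Tagln, an actin-binding protein of contractile smooth muscle, read 6.07 and 5.62 in the WT-labelled arrays and 6.48 and 6.06 in the cKO-labelled. The groups overlapped narrowly, and the log2 difference was 0.42 (standard error 0.22, 95% confidence interval −0.11 to 0.96). Anpep, the aminopeptidase CD13 of brain pericytes, read 6.54 and 5.79 against 5.92 and 5.82, with 1 high WT-labelled array. Rgs5, a regulator of G-protein signalling abundant in pericytes, read 10.08 and 10.07 against 9.88 and 10.21, a log2 difference of −0.03. Pdgfrb (−0.12), the receptor that recruits pericytes, and Notch3 (0.00), the Notch receptor of mural cells, differed by less than their standard errors. Pltp, a phospholipid transfer protein, read 10.20 and 10.09 against 9.88 and 10.31.

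**Figure D2:**
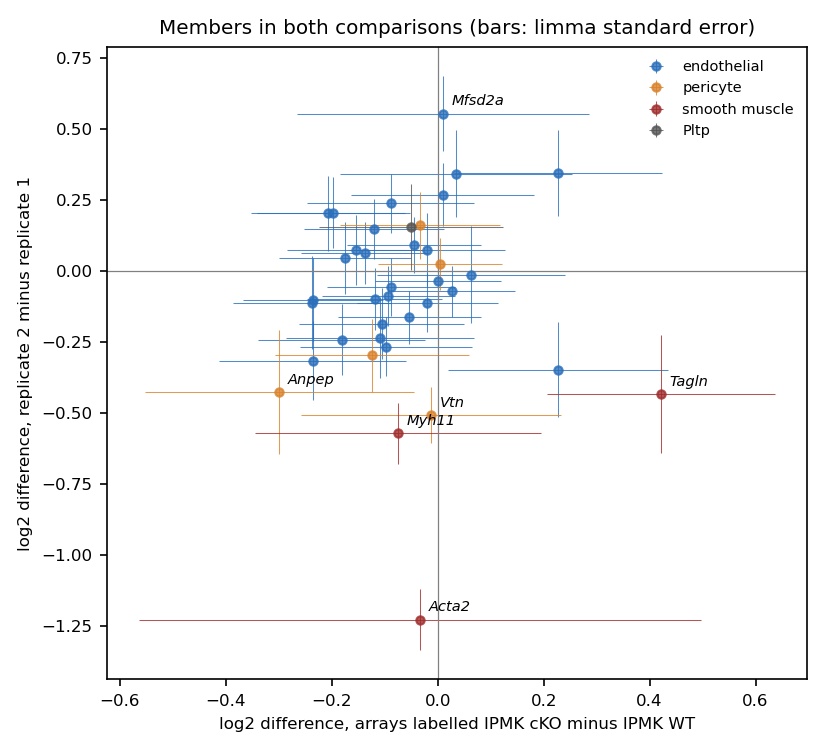
Log2 difference of each of the 38 genes by genotype label (horizontal axis, IPMK cKO minus IPMK WT) and by replicate number (vertical axis, replicate 2 minus replicate 1), with limma standard errors as bars. Acta2 lies at −0.03 by genotype and −1.23 by replicate number, while Tagln has the largest genotype difference at 0.42.

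Smooth muscle genes stood apart by replicate number in both genotypes. The smooth muscle genes read lower in both replicate 2 arrays than in both replicate 1 arrays in 3 of 3, while the endothelial genes were split, 8 lower and 8 higher without overlap among 29. Over all probe sets 22.7% were lower and 22% higher without overlap, and over the bright ones these shares were 24.5% and 33%. The median log2 difference, replicate 2 minus replicate 1, was −0.57 over smooth muscle genes, −0.30 over pericyte genes and −0.03 over endothelial genes, against −0.01 over all probe sets. In limma 0 of the 38 genes had an adjusted p under 0.05, as did 0% of all probe sets. At an unadjusted p under 0.05 there were 4 lower and 1 higher, and their number lies near the 12.1% of all probe sets that reached it and the 15.8% of bright ones. A difference of 1.5-fold or more was measured in 1 of the 38, Acta2, and in 1.82% of all probe sets.

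Acta2, the actin of contractile smooth muscle, read 8.99 in the WT-labelled array and 8.82 in the cKO-labelled array of replicate 1, and 7.63 and 7.73 in those of replicate 2. Both replicate 2 arrays lay below both replicate 1 arrays by more than 1 on the log2 scale, and the genotypes lay side by side within each number. The log2 difference was −1.23 with a standard error of 0.11 (95% confidence interval −1.50 to −0.95), which is 2.34-fold lower, and its adjusted p in limma was 0.202. No other of the 12286 bright probe sets had a lower difference. The 16 probes of its set lie on the minus strand of chromosome 19 from 34241090 to 34255336 in the array annotation, which does not name its genome build.

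Myh11, the myosin heavy chain of smooth muscle, read 7.04 and 6.86 in replicate 1 and 6.36 and 6.40 in replicate 2, naming the WT-labelled array first. Its log2 difference was −0.57 with a standard error of 0.11 (95% confidence interval −0.85 to −0.29), and its adjusted p in limma was 0.285. Here too the numbers stood apart and the genotypes did not. Tagln had a log2 difference of −0.43 (95% confidence interval −0.97 to 0.10, adjusted p = 0.481 in limma), being −0.45 within the WT-labelled arrays and −0.42 within the cKO-labelled, and its replicate numbers were only just apart, at 6.07 and 6.06 where they came closest. In Acta2 these differences within a genotype were −1.36 and −1.10, and in Myh11 −0.68 and −0.46.

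Pericyte genes were mixed, 3 of 5 lower without overlap, as 22.7% of all probe sets and 24.5% of bright ones were. Vtn, the adhesive glycoprotein vitronectin that brain pericytes make, read 9.14 and 9.03 in replicate 1 and 8.54 and 8.62 in replicate 2, a log2 difference of −0.51 (standard error 0.10, adjusted p = 0.291 in limma). Its replicate 2 arrays lay clearly below the others. Anpep (−0.43) and Pdgfrb (−0.30) were also lower without overlap, while Rgs5 (0.16) and Notch3 (0.02) overlapped. In Anpep the difference was −0.75 within the WT-labelled arrays and −0.10 within the cKO-labelled, and in Pdgfrb −0.46 and −0.13.

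**Figure D3:**
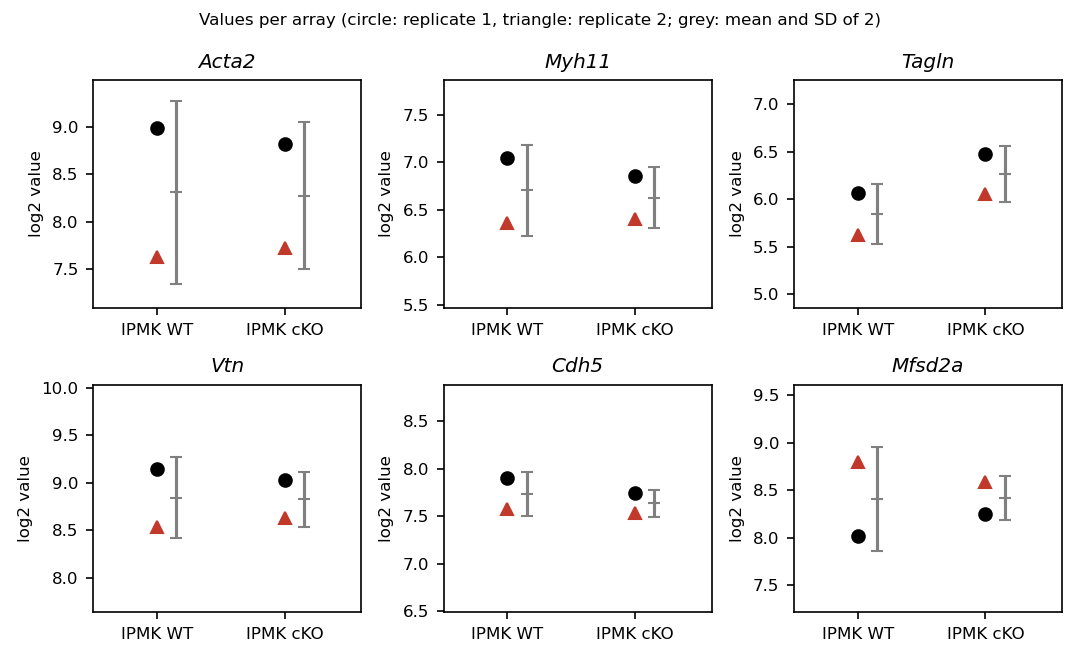
Log2 values per array of 6 genes, with replicate 1 as black circles, replicate 2 as red triangles and the mean and SD of the 2 arrays of each genotype in grey, on axes of equal span. In the 3 smooth muscle genes, Vtn and Cdh5 the triangles lie below the circles in both genotypes, and in Mfsd2a they lie above.

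Endothelial genes lay on both sides by replicate number, 13 of 29 with a higher mean and 16 with a lower one, against 48.6% and 51.4% of all probe sets. Mfsd2a, which carries docosahexaenoic acid into the brain and keeps vesicle transport across the endothelium low, read 8.02 and 8.25 in replicate 1 and 8.80 and 8.58 in replicate 2. Its replicate 2 arrays lay above both others, with a log2 difference of 0.55 (95% confidence interval 0.21 to 0.90) and an adjusted p of 0.310 in limma, and 1.78% of bright probe sets had a higher one. Cdh5, the cadherin of endothelial adherens junctions, read 7.90 and 7.74 in replicate 1 and 7.57 and 7.54 in replicate 2. This was a log2 difference of −0.27 (standard error 0.10, adjusted p = 0.412 in limma) and no overlap between the numbers.

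All 6 receptors had a lower mean in replicate 2, with Eng at −0.35, Kdr at −0.23 and Tie1 at −0.16 not overlapping. Over all probe sets 51.4% had a lower mean, and 22.7% were lower and 22% higher without overlap. Of the 4 transcription factors 3 had a higher mean, Sox18 at 0.24, Foxq1 at 0.09 and Sox17 at 0.07, and Foxf2 had −0.11. Among the carriers, Slco1c1 had 0.34 and Abcb1a −0.24 without overlap, while Abcg2 (0.08) and Slco1a4 (−0.01) overlapped. Of the surface and secreted proteins, Vwf (−0.32) and Esm1 (−0.19), a secreted proteoglycan of sprouting tip cells, read lower without overlap, and Ly6c1 (0.35), Emcn (0.27) and Ly6a (0.21) higher without overlap. Among the junction genes, Cldn5 had 0.20, Ocln 0.15 and Tjp1 −0.07.

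The calls by replicate number depended on how the spread was estimated and on which probe sets were tested. With the prior variance following intensity, limma passed Acta2 (adjusted p = 0.00131), Vtn (adjusted p = 0.0143), Myh11 (adjusted p = 0.0312) and Mfsd2a (adjusted p = 0.0357), which was 4 of the 38 genes where 2.61% of all probe sets passed. Among bright probe sets alone, Acta2 (adjusted p = 0.0134), Vtn and Myh11 (both with an adjusted p = 0.0388 from limma) passed, as did 5.04% of those probe sets. LPE passed 5 of the 38 and 2.64% of all probe sets. Calls were thus gained over the whole array under these settings. Each replicate number holds 1 mouse of either genotype, and the animal tags in the labels are close together within each number. Litters are not given in the labels, so litter and any other feature of a number cannot be told apart.

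**Figure D4:**
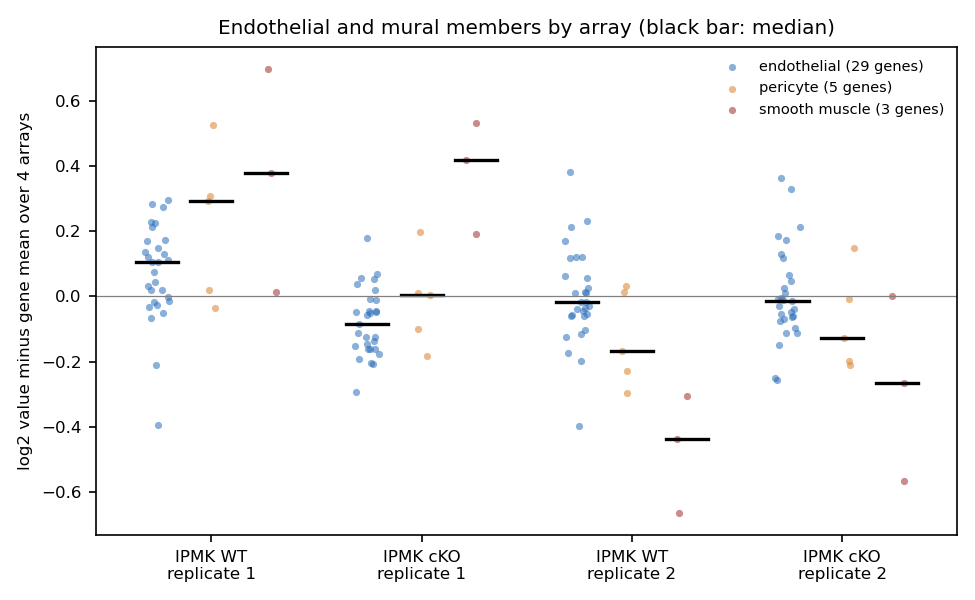
Log2 value minus the gene mean over 4 arrays for each endothelial, pericyte and smooth muscle gene (points) on each array, with the median of each class as a black bar. The smooth muscle medians are 0.38 and 0.42 in replicate 1 and −0.44 and −0.27 in replicate 2, naming the WT-labelled array first.

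Set side by side on each array as deviations from each gene's mean, the endothelial genes lay below the mural genes in replicate 1 and above them in replicate 2. Such deviations sum to 0 over the 4 arrays for each gene, so a difference in replicate 1 tends to return with the other sign in replicate 2. In list means of the values themselves the mural genes were higher on every array, at 7.18 to 7.71 against 6.76 to 6.92. The median deviation of the endothelial genes minus that of the mural genes was −0.20 and −0.19 in the WT-labelled and cKO-labelled arrays of replicate 1, and 0.24 and 0.15 in those of replicate 2. By replicate number the difference of the 2 medians was 0.39, and with each array left out in turn it lay between 0.30 and 0.45. By genotype it was −0.06, and with each array left out it lay between −0.22 and 0.24, on both sides of 0. These are summaries over chosen genes and carry no test.

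Markers of meningeal and perivascular fibroblasts lay on the same side as the smooth muscle genes. Their mean was lower in replicate 2 in 13 of 14, with an unadjusted p under 0.05 in 12, all lower, where 5.51% of all probe sets were, and an adjusted one in 0. The list means were 7.48 to 7.67 in replicate 1 and 6.89 to 7.10 in replicate 2. Aldh1a2, a retinoic acid synthesis enzyme of the meninges, read 7.84 and 7.58 in replicate 1 and 6.48 and 6.78 in replicate 2. Pdgfra, which oligodendrocyte precursors share, was the marker that did not read lower, at 0.02. Astrocyte markers had a higher mean in replicate 2 in 14 of 14 (median log2 difference 0.47), microglia markers in 14 of 14 (0.42) and oligodendrocyte markers in 14 of 14 (0.22). Neuron markers had a lower one in 10 of 14 (−0.15). The part of these cells in the vascular values was not tested.

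**Figure D5:**
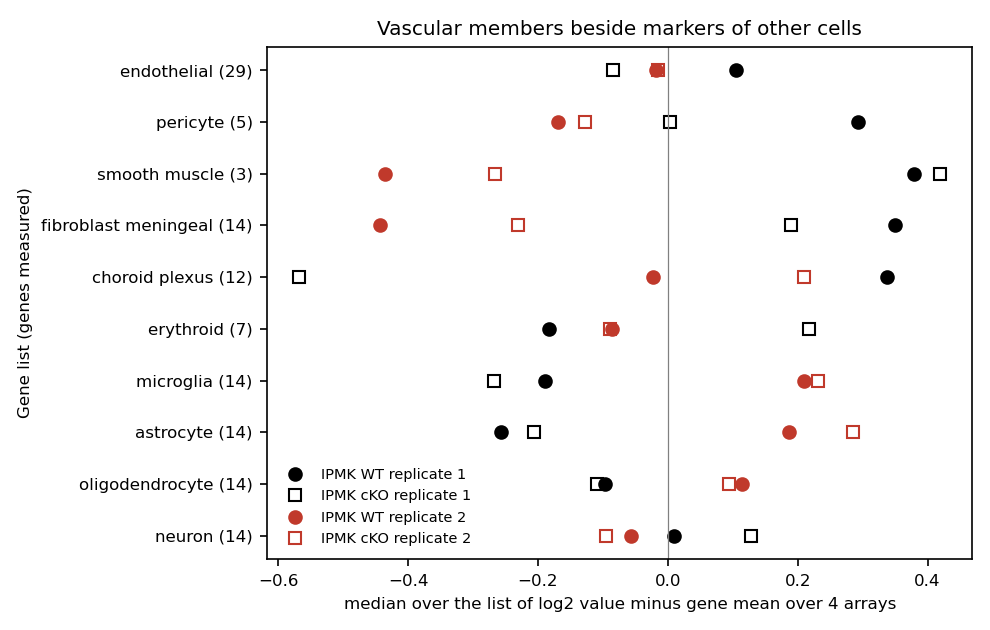
Median over each gene list (rows, number of genes measured in brackets) of the log2 value minus the gene mean over 4 arrays, with one symbol for each array. Smooth muscle and fibroblast genes lie right of 0 in replicate 1 and left of 0 in replicate 2. Astrocytes, microglia and oligodendrocytes lie the other way, and endothelial genes lie between −0.08 and 0.10 on each array.

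The promoter of Acta2 is shown because that gene had the largest difference, beside those of Eng and Slco1a4, which hold a like motif with a smaller difference and with one near 0. Serum response factor binds CArG boxes, and smooth muscle genes are its classical targets. Sequences are those of RefSeq on GRCm38.p6, from 250 bases before the start of transcription to 50 after it, and the table held 32 promoters of 26 of the 38 genes. Tagln and Myh11, the other smooth muscle genes, were not among them and were not searched. Capitals mark a CArG box in which 1 of the 6 central bases is G or C. Acta2 lies on chr19:34255324-34255623 (minus strand), Eng on chr2:32646345-32646644 (plus strand) and Slco1a4 on chr6:141856171-141856470 (minus strand).
Acta2: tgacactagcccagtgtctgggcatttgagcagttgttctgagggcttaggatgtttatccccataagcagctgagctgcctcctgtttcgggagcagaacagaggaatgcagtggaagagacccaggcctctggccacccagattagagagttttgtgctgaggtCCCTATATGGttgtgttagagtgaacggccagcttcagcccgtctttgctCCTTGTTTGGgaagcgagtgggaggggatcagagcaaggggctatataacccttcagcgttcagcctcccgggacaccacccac
Eng: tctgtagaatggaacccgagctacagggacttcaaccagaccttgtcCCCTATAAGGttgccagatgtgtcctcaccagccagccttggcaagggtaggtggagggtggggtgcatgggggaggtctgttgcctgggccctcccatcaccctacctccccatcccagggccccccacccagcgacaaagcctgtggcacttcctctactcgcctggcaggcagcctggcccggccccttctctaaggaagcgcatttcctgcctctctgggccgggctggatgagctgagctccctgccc
Slco1a4: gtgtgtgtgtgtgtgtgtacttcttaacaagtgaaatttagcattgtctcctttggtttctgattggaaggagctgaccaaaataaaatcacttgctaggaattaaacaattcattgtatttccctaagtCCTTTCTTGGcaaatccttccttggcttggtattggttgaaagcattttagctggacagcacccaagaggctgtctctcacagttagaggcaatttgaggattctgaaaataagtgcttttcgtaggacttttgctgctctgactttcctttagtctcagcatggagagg

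The exact CArG box was found in 0 of the 32 promoters and in 1.63% of all 32851 promoters of this length. With 1 central G or C allowed, a form chosen after no exact match was found, it was in 7 of the 32 and in 8.5% of all, the others being promoters of Egfl7, Tek, Kdr and Ocln. Acta2 held it at positions −84 to −75 and −34 to −25 from the start of transcription, Eng at −203 to −194 and Slco1a4 at −120 to −111. By replicate number these genes had log2 differences of −1.23, −0.35 and −0.01. Those of Egfl7, Tek, Kdr and Ocln were −0.06, −0.09, −0.23 and 0.15. AGGAAG, which holds the core of ETS factor sites, was found on either strand in 16 of the 32 and in 35.4% of all, and TATAAA on either strand in 7 and in 13.6% of all. A match describes letters and not binding.

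Other vascular genes gave few differences by genotype. Of 24 ligands of vessel growth, 34 barrier genes, 40 further endothelial genes and 30 further mural genes, 0 had an adjusted p under 0.05 in limma in either comparison. At an unadjusted p under 0.05 by genotype there were 0 ligands, 0 barrier genes, 1 endothelial gene and 2 mural genes, where 2.86% of all probe sets reached it. The endothelial gene was Nos3, the nitric oxide synthase of endothelium, at 6.34 and 6.33 in the WT-labelled arrays and 6.05 and 6.02 in the cKO-labelled, a log2 difference of −0.30. Ephb4, the ephrin receptor of veins, had −0.28. The mural genes were Ndufa4l2, a mitochondrial protein enriched in pericytes, at 5.26 and 5.16 against 5.60 and 5.64, and the intermediate filament gene Nes (0.33), which dividing neural cells also express. In all 3 the genotypes did not overlap, which their selection by a low p with 2 arrays a group nearly ensures.

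By replicate number the ligand, barrier and mural lists had most of their low p-values on one side. Among ligands, 4 were higher and 0 lower at an unadjusted p under 0.05, where 6.6% of all probe sets were higher and 5.51% lower. Of the 12286 bright probe sets, 1289 were higher and 650 lower, so the higher side was the more common one among these. Apln, the ligand of the apelin receptor, read 6.75 and 6.96 in replicate 1 and 7.90 and 7.68 in replicate 2, and Angpt1, the ligand of Tek, 5.74 and 5.55 against 6.39 and 6.43. Both stood apart by number, with log2 differences of 0.94 and 0.77 (both with an adjusted p = 0.261 from limma). Barrier genes numbered 6 higher and 2 lower, with Tspan12, a coreceptor of norrin signalling, at 0.47 and Jam2, an adhesion molecule of junctions, at 0.48. Further endothelial genes numbered 2 higher and 2 lower, with the sphingosine-phosphate receptor S1pr1 at 0.47 and Plvap, a protein of fenestrated vessels, at −0.49. Further mural genes numbered 1 higher and 7 lower, with the amino acid carrier Slc6a20a at −0.87 and the transcription factor Foxc1 at −0.50. The 7 included the contractile genes Cnn1 (−0.50), Pln (−0.41), Mylk (−0.25) and Myl9 (−0.33), named after their values were seen. Other muscle genes of that list, Lmod1 (−0.21), Des (−0.24), Tpm2 (−0.13) and Kcnmb1 (0.07), did not reach an unadjusted p under 0.05 in limma.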

How the data were processed

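The authors extracted the scans with GeneChip Command Console and made gene-level log2 values by RMA in Expression Console, which subtracts background and quantile-normalizes, so the arrays' overall signal was made alike. The deposited table holds 33793 probe sets. Its 5 blank or total lines, 4 further columns of signal per array and the authors' own comparison (folds, LPE scores, adjusted p-values) were not used. Symbols of 26234 probe sets were updated or checked through Entrez identifiers in the GRCm38.p6 gene table. Means under 4 on the log2 scale were found in 29.1% of probe sets.

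Groups came from the genotype labels and replicate numbers from the titles. Both comparisons were fitted in R 4.3.3 by lmFit and eBayes of limma 3.58.1 on all probe sets, without filter or block, with Benjamini-Hochberg adjustment. The prior had 3.69 and 3.01 degrees of freedom. The LPE test of the methods was rewritten with 100 intensity bins and a span of 0.2, because its package was not at hand. The scripts were tested on simulated data with 200 changed probe sets. Members and lists were chosen with earlier results of these data known. Values on every array are given for genes with an unadjusted p under 0.05 and, in each role, for the brightest gene and those with the largest difference in either comparison, and in each further list the 2 lowest p may be named. Alternatives tried were a robust prior, an intensity trend, a replicate block, median centring, renewed quantile normalization, filters at 4 and 6, other probe set rules, the other deposited table, LPE, the methods' test of averages and leaving out each array. Plots used Python 3.11.15 and matplotlib 3.10.9.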

Additional observations from a re-analysis of the deposited data

How the results depend on the processing

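By genotype, 0 of the 38 genes had an adjusted p under 0.05 in limma or the other tests under any alternative run. At an unadjusted p under 0.05 there was 1 with the replicate block (Tagln at 0.42) and 1 to 2 with 1 array left out, where Eng reached 0.51 and Tagln 0.65 without WT-labelled replicate 1, Anpep −0.68 without WT-labelled replicate 2, Ly6c1 0.48 without cKO-labelled replicate 1 and Tagln 0.63 without cKO-labelled replicate 2. The mural median by genotype then lay between −0.33 and 0.19. By replicate number the genes at an adjusted p under 0.05 were 5 by LPE, 3 with the filter at 6 and 4 with the intensity trend, against 0, where 2.64%, 5.04% and 2.61% of the probe sets tested passed, and at an unadjusted p under 0.05 they were 10, 8, 12 and 3 by the test of averages, against 5, where 9.44%, 26.7%, 15.2% and 10.1% of probe sets passed, and 4 to 9 with 1 array left out, the most without cKO-labelled replicate 1. The filter tests fewer probe sets and also refits the prior on them, and with it calls rose before adjustment as well. The cause of these shifts was not tested. The endothelial minus mural difference by replicate number lay between 0.30 and 0.45 with 1 array left out, with the array then alone taken to vary as the others do. The promoters with a CArG box were 7 in place of 0 when 1 central G or C was allowed. Of 1042 values of single genes under alternatives, 12 passed, all by replicate number, and 55 uncalled ones had the other sign. The replicate differences of the genotypes correlated at 0.24 over probe sets, and with 2 pairs the labels do not say that numbers pair mice. Each gene has 1 probe set, so other probe set rules changed nothing. The robust prior and the intensity trend do not alter medians and were not run for them.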
